A study of Mus musculus with 12 samples.

Results

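The transcripts described here are those of 30 genes of cholesterol and fatty acid synthesis and of their control, among 55487 genes listed for each library. They were taken by gene symbol and comprise 18 genes of the sterol pathway, 6 genes of SREBP control and sterol transport, Ggps1 of the isoprenoid branch, and 5 genes of fatty acid synthesis. RNA came from differentiating G1E-ER4 cells, mouse erythroid progenitors without their own GATA1 in which estradiol switches on an introduced form. All cultures received siRNA by nucleofection in 2 rounds 24 h apart and 100 nM β-estradiol at the second round, and all were harvested 24 h later. The groups were siZIP10 plus DTPA (3 libraries), siControl plus DTPA (2 libraries), siZIP10 (3 libraries) and siControl (3 libraries). siZIP10 targets Slc39a10, whose product ZIP10 imports zinc, and siControl is the control siRNA. DTPA, which chelates extracellular zinc, was given at 25 µM when differentiation began. Another library listed as siControl plus DTPA (replicate 3) repeats siZIP10 replicate 1 in all 55487 values and was left out. All groups are cultures of 1 cell line, and zinc, ZIP10 protein, sterols and fatty acids were not measured in the files used here.

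Cholesterol is built from acetyl-CoA through the mevalonate pathway, which first makes isoprenoid units, joins them into squalene, closes squalene into lanosterol and then trims lanosterol in a series of steps in the endoplasmic reticulum. SREBP-2, encoded by Srebf2, is the main activator of these genes, while SREBP-1c, a product of Srebf1, acts more on fatty acid synthesis. SCAP carries the SREBP precursors to the Golgi for cleavage when sterols are scarce, and the INSIG proteins hold SCAP back when sterols are plentiful. Red cell precursors need sterols and fatty acids for their membranes, and mature red cells no longer make cholesterol.

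Levels are in TPM, transcripts of a gene among 1e+06, which is a scale per transcript length. Changes are differences of log2(TPM + 1) between group means, and such differences are too small for genes of few TPM. Of all genes, 11379 averaged 1 TPM or more over the 11 libraries; limma's moderated test was fitted to these, and a gene was called at an adjusted p under 0.05. Of the 30 genes, 29 were tested. Insig1 was listed at 0 in all 11 libraries, which need not mean that it was not expressed. Libraries held between 19.6 and 24.7 M recovered reads, where 1 M is 1e+06. Slc39a10, the target of the siRNA, stood at 5.36, 4.93 and 5.02 TPM in siZIP10 plus DTPA, against 22.0 and 20.3 TPM in siControl plus DTPA, and at 0.539, 0.507 and 0.837 TPM in siZIP10, against 2.78, 2.31 and 2.78 TPM in siControl. It averaged 805% of siControl with DTPA alone. With both treatments it was still higher than in siControl, at 195% (log2 change 0.75, adjusted p = 7.74e-05), although lower than with DTPA alone. Mt2, a metallothionein gene induced by zinc, was at 1.08% of siControl in siZIP10 plus DTPA and at 0.837% in siControl plus DTPA. The knockdown did not lower Mt2 or Mt1, a second such gene. With siZIP10 alone they were at 118% (adjusted p = 0.122) and 117% (adjusted p = 0.00875) of siControl. In siZIP10 plus DTPA they were at 129% (adjusted p = 0.033, libraries overlapping) and 156% (adjusted p = 6.55e-06) of siControl plus DTPA. All 10 erythroid markers averaged at least 1 TPM in every group, and the 5 hepatocyte and adipocyte markers summed to at most 0.122 TPM in any library.

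With both treatments together, 26 of the 29 tested genes fell, 1 rose and 2 were not called (siZIP10 plus DTPA against siControl). All 18 sterol pathway genes and all 5 fatty acid genes fell, Ggps1 rose, and Scap and Insig2 were not called. In this comparison 39.9% of all tested genes were called lower and 26.7% higher, so many other genes changed too. The 26 genes lay wholly below siControl in every library with both treatments, as did 41.8% of all tested genes. The median log2 change was −1.26 over the sterol genes and −0.75 over the fatty acid genes, beside −0.08 over all tested genes. Summed over the 18 sterol genes, the 3 libraries of siZIP10 plus DTPA held 1057 to 1108 TPM, against 2319 to 2368 TPM in the 3 siControl libraries, so that the mean sum was 45.8% of siControl. In bulk RNA, fewer cells that express a gene and less of its RNA per cell cannot be told apart.

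**Figure D1:**
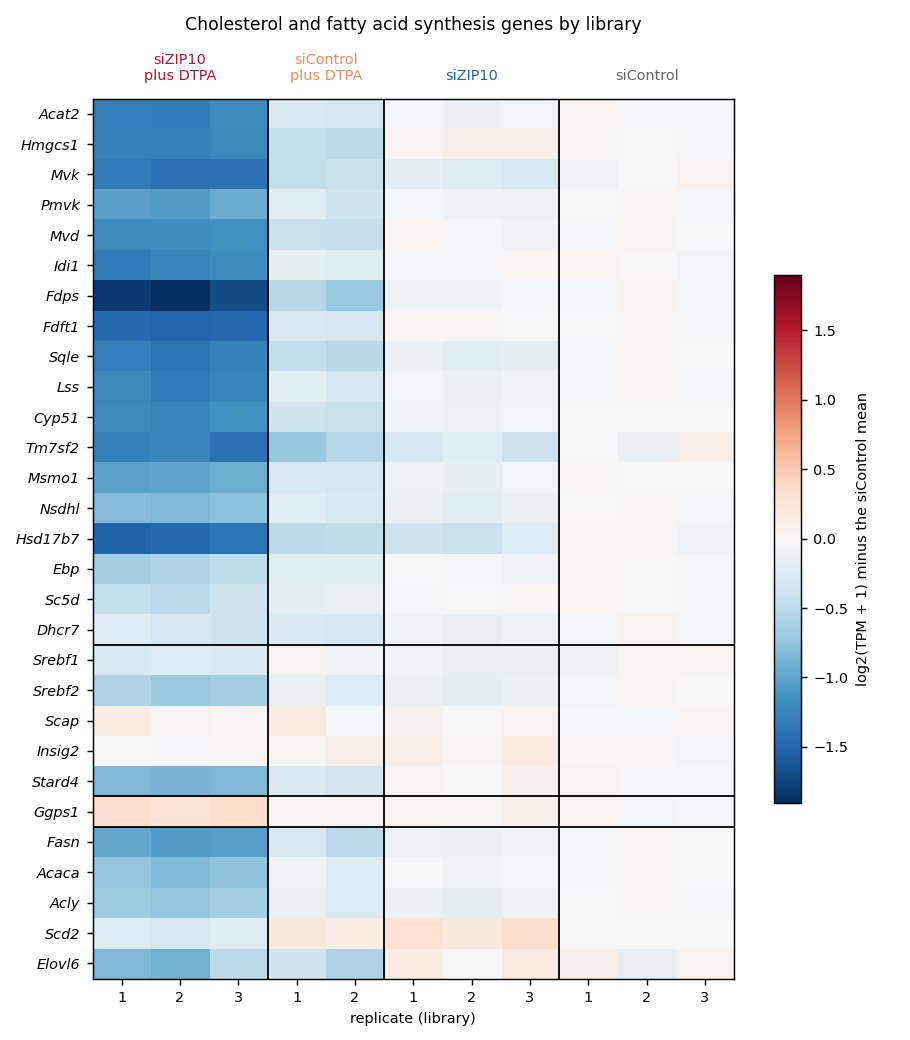
Each cell of the plot is the log2(TPM + 1) of a gene (rows, in pathway order) in a library (columns) minus the siControl mean, with blue below and red above it. The 3 siZIP10 plus DTPA columns are blue in nearly all sterol and fatty acid rows, the pair of siControl plus DTPA columns is pale blue, and the Ggps1 row is red with both treatments.

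Promoter windows of the genes are given before the levels of single genes, because genes of this pathway are known to share sites for SREBP and for its partners NF-Y and Sp1. RefSeq windows on GRCm38.p6, from 250 bases before to 50 bases after a gene's start, were found for 25 of the 30 genes; Fdps, Fdft1, Sqle, Stard4 and Scd2 had none. Both strands were searched for 4 motifs. TCACCCCAC, the core of the sterol regulatory element, was in 1 of the 25 genes, Hmgcs1, and in 0.621% of the 7733 tested genes with a window. TCACNCCAC, a looser form that contains the core form, was in the same gene and in 1.28% of tested genes. CCAAT, the box bound by NF-Y, was in 84% of the 25 genes and in 44.6% of tested genes, and reads ATTGG where it lies on the other strand. It was in 14 of the 15 sterol pathway genes with a window and in 2 of the 4 fatty acid genes. GGGCGG, the GC box bound by Sp1, was in 80% of the 25 genes and in 70.8% of tested genes. A match is only a run of letters in a window of this length, and other forms of these sites were not searched.

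Of the windows, 3 are printed 5′ to 3′ on the gene's strand, with TCACNCCAC and CCAAT or ATTGG in capitals. Hmgcs1 (chr13:119690101-119690400, plus strand) is shown because it holds the sterol element, from −137 to −129 bases from the start. Mvk (chr5:114444019-114444318, plus strand), which fell with both treatments, and Ggps1 (chr13:14063439-14063738, minus strand), which rose, were chosen after their values were seen. Mvk was picked for holding the most CCAAT boxes of the genes with a window, 5. Ggps1 holds 3, so the box was present in a gene of either direction. The other genes with a window that fell hold between 0 (Acat2, Acaca and Elovl6) and 4 (Hmgcs1 and Nsdhl). The count in Mvk therefore does not stand for the genes that fell.
Hmgcs1: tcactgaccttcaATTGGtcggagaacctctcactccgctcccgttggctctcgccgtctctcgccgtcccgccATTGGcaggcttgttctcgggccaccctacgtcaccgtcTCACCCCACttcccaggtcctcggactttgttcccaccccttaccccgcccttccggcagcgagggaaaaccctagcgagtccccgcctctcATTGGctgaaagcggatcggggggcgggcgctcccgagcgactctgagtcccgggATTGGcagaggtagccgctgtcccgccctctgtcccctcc
Mvk: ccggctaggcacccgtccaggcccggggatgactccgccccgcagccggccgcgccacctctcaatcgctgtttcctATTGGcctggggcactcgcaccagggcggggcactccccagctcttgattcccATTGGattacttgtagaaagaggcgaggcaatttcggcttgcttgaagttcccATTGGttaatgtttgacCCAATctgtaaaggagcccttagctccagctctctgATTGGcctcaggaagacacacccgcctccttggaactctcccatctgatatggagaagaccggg
Ggps1: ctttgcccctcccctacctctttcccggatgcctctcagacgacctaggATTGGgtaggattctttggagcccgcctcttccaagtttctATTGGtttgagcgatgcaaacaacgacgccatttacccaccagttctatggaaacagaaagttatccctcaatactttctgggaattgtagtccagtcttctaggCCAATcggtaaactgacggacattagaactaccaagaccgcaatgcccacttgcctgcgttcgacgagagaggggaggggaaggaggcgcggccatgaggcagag

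The 8 enzymes from acetyl-CoA to squalene fell further with both treatments, as a group, than those that follow squalene, to between 22.8% and 49.3% of siControl, and none overlapped siControl in any library. Their median log2 change was −1.27. Acat2, the cytosolic acetyl-CoA acetyltransferase that makes acetoacetyl-CoA, had 62.4, 61.8 and 67.3 TPM in siZIP10 plus DTPA, against 161, 153 and 154 TPM in siControl (log2 change −1.28, SE 0.04, adjusted p = 4.81e-10). The siControl plus DTPA libraries, at 128 and 124 TPM, lay between them, and the siZIP10 libraries, at 151, 142 and 150.1 TPM, averaged 94.8% of siControl (−0.08, adjusted p = 0.172).

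Hmgcs1 (ENSMUSG00000093930.2, mm10 chromosome 13, 119690379 to 119708260, plus strand) encodes the cytosolic HMG-CoA synthase, which makes the precursor of mevalonate and whose window holds the letters of the sterol element printed above. It had 109, 109.6 and 114 TPM with both treatments, 195 and 189 TPM with DTPA and 279, 288 and 288 TPM with siZIP10, against 271, 267 and 264 TPM in siControl. The 4 groups did not overlap, and siZIP10 alone stood above siControl while every DTPA library stood below it. The change was −1.27 with both treatments (adjusted p = 3.21e-11), −0.48 with DTPA (adjusted p = 2.54e-06) and 0.09 with siZIP10 (adjusted p = 0.0212).

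Mvk, mevalonate kinase, had 38.7, 37.2 and 37.2 TPM in siZIP10 plus DTPA, 72.8 and 74.2 TPM in siControl plus DTPA and 88.5, 85.4 and 82.0 TPM in siZIP10, against 95.1, 101 and 105 TPM in siControl. All 3 treated groups lay wholly below siControl, with both treatments lowest (log2 change −1.39, SE 0.04, adjusted p = 3.41e-10). Pmvk, phosphomevalonate kinase, had 66.9, 66.0 and 71.7 TPM with both treatments, against 138, 142 and 136 TPM in siControl (log2 change −1.01, SE 0.05, adjusted p = 1.02e-08). Mvd, the decarboxylase that yields isopentenyl diphosphate, had 85.1, 86.5 and 87.5 TPM with both treatments, against 192, 204 and 196 TPM in siControl (log2 change −1.18, SE 0.03, adjusted p = 1.5e-10). Both genes were lowest in the same 3 libraries as Mvk.

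Idi1, the isomerase that makes the second isoprenoid unit, had 50.8, 53.3 and 56.6 TPM with both treatments, 113 and 110.1 TPM with DTPA and 127, 128 and 133 TPM with siZIP10, against 134, 128 and 125 TPM in siControl. The siZIP10 libraries overlapped siControl and averaged 99.9% of it, whereas with both treatments the level was 41.5% of siControl. Fdft1 (ENSMUSG00000021273.10, mm10 chromosome 14, 63145150 to 63179578, minus strand) encodes squalene synthase, the first step that commits the pathway to sterols. It had 99.7, 98.2 and 98.7 TPM with both treatments, 228 and 224 TPM with DTPA and 287, 283 and 282 TPM with siZIP10, against 281, 283 and 275 TPM in siControl. Fdft1 had the smallest adjusted p of the 29 genes with both treatments (log2 change −1.49, SE 0.02, adjusted p = 2.68e-12). Of its exon bases, 18.3% overlap Ctsb on the other strand, and since the strand setting of the counting is not given, its level is uncertain by the reads that this overlap could hold. Ctsb averaged 109% of siControl with both treatments.

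Fdps, which makes farnesyl diphosphate, the branch point to sterols, dolichol, ubiquinone and prenylated proteins, showed the lowest share of siControl of the 29 genes, 22.8%. It had 3.21, 2.66 and 3.57 TPM with both treatments, 9.23 and 8.11 TPM with DTPA and 12.8, 12.9 and 13.5 TPM with siZIP10, against 13.4, 14.5 and 13.4 TPM in siControl (log2 change −1.84, SE 0.08, adjusted p = 1.11e-08 for both treatments). Its level is uncertain, because 26.7% of its exon bases are shared with Gm43738 on the same strand, which was listed at 0 in every library.

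The 10 enzymes from squalene to cholesterol also all fell with both treatments, with a median log2 change of −1.10, and they spread more widely, from 34.1% to 79.2% of siControl. Sqle, squalene epoxidase, had 63.6, 59.6 and 63.9 TPM with both treatments, 113 and 109 TPM with DTPA and 144, 136 and 141 TPM with siZIP10, against 154, 162 and 158 TPM in siControl (log2 change −1.33, SE 0.04, adjusted p = 1.93e-10 for both treatments). All 3 treated groups were below siControl without overlap. Lss, lanosterol synthase, had 26.2, 24.1 and 25.2 TPM with both treatments, against 61.5, 64.2 and 61.7 TPM in siControl (log2 change −1.28, SE 0.04, adjusted p = 1.17e-09). Cyp51, which removes the methyl group at carbon 14 of lanosterol, had 69.8, 66.8 and 72.6 TPM with both treatments, against 164, 162 and 161 TPM in siControl (log2 change −1.21, SE 0.03, adjusted p = 1.71e-10). Lss and Cyp51 thus stood at 40.3% and 42.9% of siControl.

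Tm7sf2, a sterol C14 reductase, was expressed at a low level, with 3.62, 3.71 and 3.21 TPM with both treatments, 5.83 and 6.77 TPM with DTPA and 7.95, 8.79 and 7.59 TPM with siZIP10, against 10.4, 9.40 and 11.2 TPM in siControl. All 3 treated groups lay below siControl, although 12.1% of the exon bases of Tm7sf2 overlap Vps51 on the same strand and its level is uncertain. Vps51 averaged 94.8% of siControl with both treatments. Hsd17b7, the 3-keto reductase of the demethylation at carbon 4, had 13.6, 14.1 and 14.9 TPM with both treatments, 28.6 and 28.9 TPM with DTPA and 30.9, 30.1 and 34.2 TPM with siZIP10, against 41.9, 41.4 and 38.9 TPM in siControl. It fell in each of the 3 comparisons with siControl, by 1.46, 0.49 and 0.35 on the log2 scale (adjusted p = 2.14e-09, 0.000208 and 0.000783).

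Msmo1 and Nsdhl, the oxidase and the decarboxylating dehydrogenase of the same demethylation, stood at 50.4% and 56.3% of siControl with both treatments. Msmo1 had 105, 106 and 111 TPM in siZIP10 plus DTPA, against 216, 211 and 212 TPM in siControl (log2 change −0.98, SE 0.03, adjusted p = 8.04e-10). Nsdhl had 87.0, 85.7 and 89.7 TPM in siZIP10 plus DTPA, against 155, 160.1 and 151 TPM in siControl (log2 change −0.82, SE 0.03, adjusted p = 4.55e-09). Neither overlapped siControl, and both also lay wholly below it with DTPA alone and with siZIP10 alone.

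The 3 enzymes nearest to cholesterol changed least among the sterol genes with both treatments. Ebp, the sterol isomerase, had 125, 130.3 and 139 TPM with both treatments, against 199, 196 and 189.7 TPM in siControl (log2 change −0.57, SE 0.04, adjusted p = 2.09e-07). Sc5d, the C5 desaturase, had 29.95, 29.1 and 31.0 TPM with both treatments, against 42.4, 40.9 and 40.5 TPM in siControl (log2 change −0.45, SE 0.03, adjusted p = 6.7e-07). These were 67.4% and 72.7% of siControl.

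Dhcr7, the reductase of 7-dehydrocholesterol at the end of the pathway, had 23.4, 22.1 and 20.9 TPM with both treatments, 22.9 and 22.1 TPM with DTPA and 26.3, 25.0 and 26.0 TPM with siZIP10, against 27.3, 29.3 and 27.3 TPM in siControl. Its 3 double-treated libraries surrounded the pair with DTPA alone, and it was the 1 sterol gene for which the knockdown made no called difference at low zinc (log2 change −0.02, SE 0.05, adjusted p = 0.743). Dhcr7 nevertheless fell relative to siControl, both with DTPA (−0.30, adjusted p = 0.00213) and with both treatments (−0.32, adjusted p = 0.000151).

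**Figure D2:**
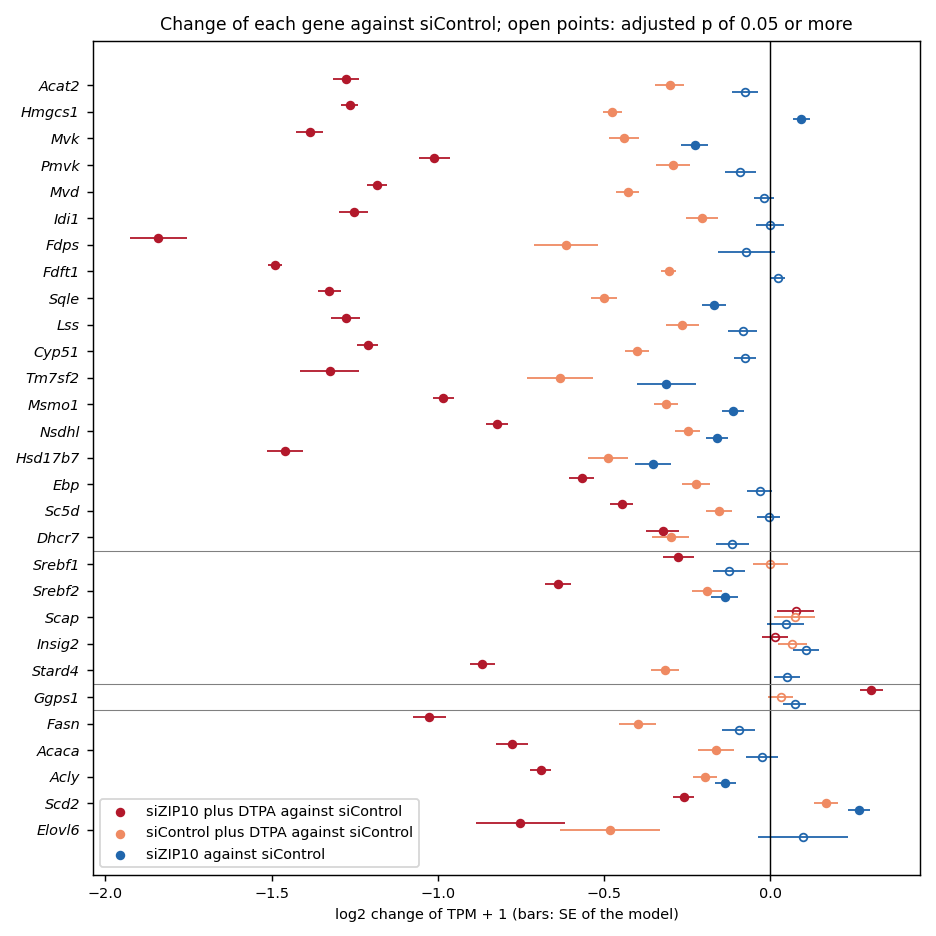
Points are log2 changes of TPM + 1 against siControl for each tested gene, with the SE of the model as bars, and open points have an adjusted p of 0.05 or more. The dark red points of siZIP10 plus DTPA lie left of the other colours for 17 of the 18 sterol genes beyond the error bars, and for Dhcr7 the red and orange error bars overlap.

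Among the SREBP genes, Srebf2 and Srebf1 fell with both treatments, and Scap and Insig2 were not called. Srebf2, the most abundant of the 30 genes in siControl by mean TPM, had 264, 241 and 249.7 TPM with both treatments, 356 and 332 TPM with DTPA and 360.2, 349 and 361 TPM with siZIP10, against 377, 405 and 396 TPM in siControl. It stood at 64.2% of siControl with both treatments (log2 change −0.64, SE 0.04, adjusted p = 1.43e-07), with no overlap between any treated group and siControl. Srebf1 had 55.4, 57.8 and 56.6 TPM with both treatments, against 64.3, 70.9 and 71.2 TPM in siControl (log2 change −0.28, SE 0.05, adjusted p = 0.000373). With DTPA alone Srebf1 stood at 71.7 and 65.9 TPM, inside or just above the range of siControl (0.00, adjusted p = 0.999). The table gives Srebf1 as 1 gene, so SREBP-1a and SREBP-1c are not separated.

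Scap had 29.6, 28.1 and 27.0 TPM with both treatments, against 26.1, 26.3 and 27.7 TPM in siControl (log2 change 0.08, SE 0.06, adjusted p = 0.248), and the groups overlapped. Insig2 had 76.9, 75.3 and 79.1 TPM with both treatments, against 78.1, 77.8 and 73.2 TPM in siControl (log2 change 0.01, SE 0.04, adjusted p = 0.78), and these also overlapped. These calls depend on the processing. Scap was called higher with both treatments under 3 other scalings and voom on recovered reads, with log2 changes of 0.15 to 0.18, and Insig2 under 2 of these scalings and voom, with 0.10 to 0.17. Stard4, a carrier that moves sterols between membranes, fell with the synthesis genes, with 84.0, 82.2 and 84.0 TPM with both treatments, 127 and 119 TPM with DTPA and 159, 153 and 163 TPM with siZIP10, against 161, 149 and 149 TPM in siControl (log2 change −0.87, SE 0.04, adjusted p = 7.19e-09 for both treatments).

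Ggps1 (ENSMUSG00000021302.10, mm10 chromosome 13, 14050659 to 14063488, minus strand) was the 1 gene of the 29 that rose with both treatments. It makes geranylgeranyl diphosphate, the lipid attached to Rab proteins, and so draws on the same precursors as the sterol pathway. Ggps1 had 80.7, 77.8 and 81.8 TPM in siZIP10 plus DTPA, 66.4 and 65.8 TPM in siControl plus DTPA and 67.5, 67.2 and 69.7 TPM in siZIP10, against 67.7, 62.7 and 63.8 TPM in siControl. The double-treated libraries lay above all others (log2 change 0.30, SE 0.03, adjusted p = 1.68e-05), and the other 8 libraries lay between 62.7 and 69.7 TPM. Against Fdps, which supplies its substrate, the direction was opposite in the same 3 libraries.

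The median fatty acid gene fell less than the median sterol gene with both treatments, and Scd2 departed from the other 4 in the single treatments. Acly, which makes cytosolic acetyl-CoA from citrate, had 121, 117 and 122 TPM with both treatments, 176 and 164 TPM with DTPA and 179, 173 and 179.9 TPM with siZIP10, against 195, 197 and 192 TPM in siControl (log2 change −0.69, SE 0.03, adjusted p = 1.04e-08 for both treatments). Every treated library of Acly was below every siControl library. Acaca, acetyl-CoA carboxylase 1, had 16.1, 14.9 and 15.7 TPM with both treatments, against 26.9, 27.7 and 27.6 TPM in siControl (log2 change −0.78, SE 0.05, adjusted p = 1.11e-07).

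Fasn (ENSMUSG00000025153.9, mm10 chromosome 11, 120805846 to 120824547, minus strand) encodes fatty acid synthase, which builds palmitate. It had 31.6, 29.4 and 29.8 TPM with both treatments, 50.7 and 44.0 TPM with DTPA and 58.7, 57.1 and 60.0 TPM with siZIP10, against 62.0, 63.3 and 62.7 TPM in siControl (log2 change −1.03, SE 0.05, adjusted p = 1.53e-08 for both treatments). Fasn was thus at 48.3% of siControl with both treatments, where the median log2 change of the sterol genes corresponds to 41.8%. Elovl6, which lengthens palmitate to stearate, was expressed at a low level, with 1.55, 1.46 and 2.27 TPM with both treatments, 2.55 and 2.06 TPM with DTPA and 4.06, 3.64 and 4.12 TPM with siZIP10, against 3.90, 3.15 and 3.81 TPM in siControl (log2 change −0.75, SE 0.13, adjusted p = 0.000499 for both treatments). The double-treated and DTPA libraries of Elovl6 overlapped each other and lay below siControl.

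Scd2 (ENSMUSG00000025203.6, mm10 chromosome 19, 44293674 to 44306864, plus strand) encodes a stearoyl-CoA desaturase, which makes monounsaturated fatty acids. It had 267, 258 and 270.3 TPM with both treatments, 365 and 349 TPM with DTPA and 388, 366 and 395 TPM with siZIP10, against 317, 317 and 320.0 TPM in siControl. Either single treatment therefore placed Scd2 above siControl (0.17, adjusted p = 0.0055 with DTPA; 0.27, adjusted p = 0.000154 with siZIP10), and both together placed it below (−0.26, adjusted p = 3.06e-05), with no overlap between siControl and any other group. Scd2 was the most abundant of the 5 genes in every group, and the summed TPM of the 5 was 71.4% of siControl with both treatments, 99.1% with DTPA and 107.1% with siZIP10 although the median gene was below siControl in each.

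**Figure D3:**
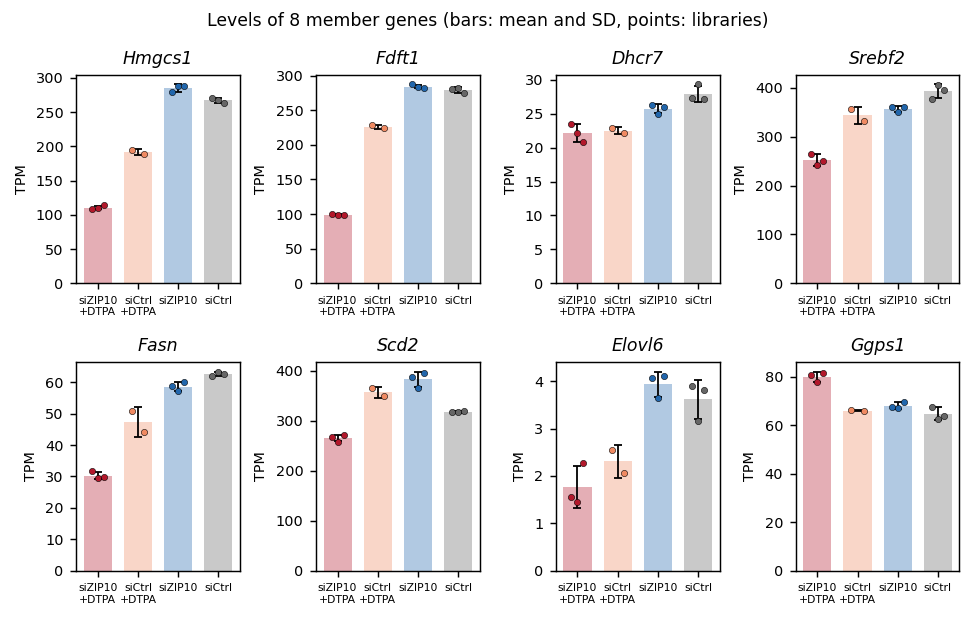
Bars are group means in TPM, error bars are SD, and points are libraries (n = 3, and n = 2 for siControl plus DTPA) for 8 of the genes. Hmgcs1, Fdft1, Srebf2 and Fasn are lowest with both treatments, Dhcr7 overlaps between the pair of DTPA groups, Scd2 is above siControl in each single treatment, and Ggps1 is highest with both.

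DTPA alone lowered most of the same genes by a small amount. In siControl plus DTPA against siControl, 24 of the 29 genes fell, 1 rose (Scd2) and 4 were not called (Srebf1, Scap, Insig2 and Ggps1), where 18.8% of all tested genes were called lower and 9.98% higher. All 18 sterol genes fell, with a median log2 change of −0.31 beside −0.04 over all tested genes, and the range was −0.63 (Tm7sf2) to −0.15 (Sc5d). The 4 fatty acid genes that fell were Fasn (−0.40, adjusted p = 0.000393), Acly (−0.20, adjusted p = 0.00197), Elovl6 (−0.48, adjusted p = 0.0348) and Acaca (−0.16, adjusted p = 0.0438). All 24 genes that fell also fell with both treatments. Both comparisons use the same siControl libraries, and this overlap was not counted over all tested genes. The 24 had all DTPA libraries below all siControl libraries, as did 34.4% of all tested genes.

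Some of the calls with DTPA lay near the threshold or changed when 1 library was left out, and siControl plus DTPA holds 2 libraries. Acaca, at an adjusted p of 0.0438, lost its call even without some libraries outside this comparison. Its log2 change there stayed at −0.16 (adjusted p = 0.052 to 0.0584). The call of Acaca was lost in 12 of the 22 other settings, among them those without each siControl library, without siControl plus DTPA replicate 2, without each siZIP10 library and without siZIP10 plus DTPA replicate 3 (log2 change −0.18 to −0.09, adjusted p = 0.052 to 0.358 over all 12). That of Elovl6 was lost in 7 settings, among them those without siControl replicate 1 or 3 and without either siControl plus DTPA library (−0.59 to −0.28, adjusted p = 0.0531 to 0.309). Without siControl plus DTPA replicate 1, Sc5d stood at −0.14 (adjusted p = 0.0839) and Scd2 at 0.13 (adjusted p = 0.0644). Without siControl plus DTPA replicate 2, Idi1 stood at −0.19 (adjusted p = 0.0698) and Srebf2 at −0.14 (adjusted p = 0.106).

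The knockdown alone changed fewer of the genes. In siZIP10 against siControl, 8 of the 29 genes fell, 2 rose (Hmgcs1 and Scd2) and 19 were not called, where 17.5% of all tested genes were called lower and 13.1% higher. The share called lower, 8 of 29, was thus nearer to that of all genes than in the other comparisons. The 8 were Mvk, Sqle, Tm7sf2, Msmo1, Nsdhl, Hsd17b7, Srebf2 and Acly, with Hsd17b7 (−0.35, adjusted p = 0.000783) and Tm7sf2 (−0.31, adjusted p = 0.0224) furthest from siControl. Of the 29 genes, 14 had all siZIP10 libraries below all siControl libraries, as did 24.6% of all tested genes. The same 8 genes fell in all 3 comparisons with siControl. These comparisons share the siControl libraries, and such overlap was not counted over all tested genes. The medians were −0.08 over the sterol genes, −0.03 over the fatty acid genes and −0.01 over all tested genes. Without 1 library the number of called genes was between 6 and 10, with 6 without siControl replicate 3. Over all tested genes 2805 were then called, against 3480 in the main fit. Hmgcs1 lost its call without siControl replicate 2 or 3 and without siZIP10 replicate 2 or 3 (0.08 to 0.09, adjusted p = 0.0538 to 0.603 over 6 settings). Msmo1 did so without siControl replicate 1 or 3 and without siZIP10 replicate 1 or 2 (−0.12 to −0.09, adjusted p = 0.052 to 0.144 over 6 settings). Tm7sf2 lost it without siControl replicate 1 or 3 and without siZIP10 replicate 1 or 3 (−0.31 to −0.26, adjusted p = 0.0526 to 0.0872 over 7 settings). Srebf2 lost it without siControl replicate 2 or 3 and without any 1 siZIP10 library (−0.15 to −0.11, adjusted p = 0.0514 to 0.0958 over 8 settings). Without siControl replicate 1, Srebf1 (−0.17, adjusted p = 0.0176) and Ggps1 (0.11, adjusted p = 0.0377) were called, and so was Insig2 without siZIP10 replicate 2 (0.14, adjusted p = 0.0362).

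For 22 of the 29 genes the log2 change with DTPA was lower in knockdown cells than in siControl cells, by the test of that difference. In siZIP10 plus DTPA against siZIP10, 26 of the 29 genes fell and Ggps1 rose, where 37.3% of all tested genes were called lower and 23.1% higher. As many had all siZIP10 plus DTPA libraries below all siZIP10 libraries, which 39.4% of all tested genes had. Srebf1 was among the 26 (−0.15, adjusted p = 0.0171), but not without siZIP10 replicate 1 (−0.12, adjusted p = 0.0674) and not when siZIP10 plus DTPA replicate 1 was left out (−0.14, adjusted p = 0.0561), nor under 3 other scalings and voom on recovered reads (−0.09 to −0.06), and Insig2 was called lower without siZIP10 replicate 2 (−0.12, adjusted p = 0.0274). The median over the sterol genes was −1.15, against −0.31 for DTPA in siControl cells. In the interaction, the change with DTPA in siZIP10 cells less that in siControl cells, 22 genes were called lower and 1 higher (Ggps1), where 20.4% of all tested genes were called lower and 12% higher. Among the genes called lower were Fdft1 (log2 change −1.21, SE 0.03, adjusted p = 3.96e-09), Fdps (−1.15, adjusted p = 6.34e-05) and Idi1 (−1.05, adjusted p = 1.13e-06). The order of Fdft1 and Fdps depends on the pseudocount, since with a pseudocount of 0.1 the interaction was −1.22 for Fdft1 and −1.36 for Fdps. The 8 enzymes up to squalene had a median interaction of −0.89 and the 10 from squalene onwards one of −0.49, beside −0.02 over all tested genes.

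The genes with no called interaction were Tm7sf2, Dhcr7, Srebf1, Scap, Insig2 and Elovl6. Dhcr7 had the interaction nearest to 0 among the sterol genes (log2 change 0.09, SE 0.07, adjusted p = 0.396). Tm7sf2 missed the threshold narrowly (−0.38, adjusted p = 0.0516) and was called in 8 other settings, among them those without siControl replicate 3 (−0.43, adjusted p = 0.0428) and without siControl plus DTPA replicate 1 (−0.47, adjusted p = 0.0445). Insig2 was called without siZIP10 replicate 2 (−0.19, adjusted p = 0.0345). In Scd2 the interaction (log2 change −0.69, SE 0.05, adjusted p = 2.74e-06) joined effects of opposite sign, since DTPA raised it in siControl cells and lowered it in siZIP10 cells (−0.53, adjusted p = 1.45e-07).

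In siZIP10 plus DTPA against siControl plus DTPA, the effect of the knockdown at low zinc, 24 genes fell and Ggps1 rose, where 31.7% of all tested genes were called lower and 21.3% higher. As many lay wholly below siControl plus DTPA, as did 38.9% of all tested genes. The sterol genes had a median of −0.80, with Fdps (−1.23, adjusted p = 1.64e-06), Fdft1 (−1.18, adjusted p = 9.84e-11) and Idi1 (−1.05, adjusted p = 3.04e-08) lowest. Elovl6, which was not called (−0.27, adjusted p = 0.157), was called without siZIP10 plus DTPA replicate 3 (−0.40, adjusted p = 0.0392). The comparisons above share libraries, so their counts are not independent of each other.

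The sterol and fatty acid sets can be set side by side in each library. The median over the 18 sterol genes of log2(TPM + 1) minus the siControl mean was −1.27 to −1.19 in the 3 siZIP10 plus DTPA libraries, −0.35 to −0.30 in the siControl plus DTPA libraries, −0.12 to −0.06 in the siZIP10 libraries and −0.02 to 0.01 in the siControl libraries. That over the 5 fatty acid genes was −0.84 to −0.66 with both treatments, −0.25 to −0.14 with DTPA, −0.06 to 0.003 with siZIP10 and −0.005 to 0.015 in siControl. With both treatments the sterol median was thus lower in each library than any fatty acid median, and it was also lower in both DTPA libraries. The sterol median change minus the fatty acid median change was −0.51 with both treatments, −0.11 with DTPA and −0.05 with siZIP10, where the SD of this difference between replicates was 0.034. With 5 fatty acid genes that range from −1.03 (Fasn) to −0.26 (Scd2) with both treatments, this describes these genes and was given no test.

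**Figure D4:**
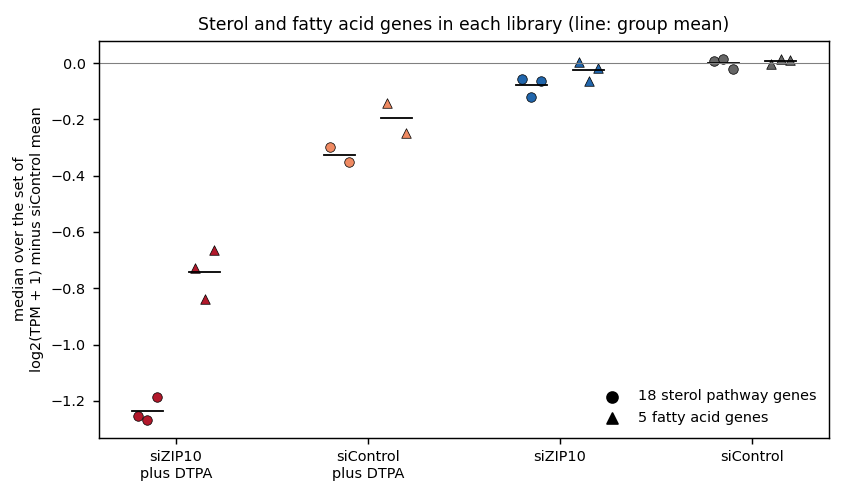
Each point is the median, over 18 sterol genes (circles) or 5 fatty acid genes (triangles), of log2(TPM + 1) minus the siControl mean in a library, and lines are group means. Both sets are lowest with both treatments, where the circles lie between −1.27 and −1.19 and the triangles between −0.84 and −0.66.

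Genes next to these in the pathways are given from 6 lists, where 39.9% of all tested genes were called lower and 26.7% higher with both treatments. Of 6 further mevalonate and sterol enzymes, 4 were tested and all 4 fell with both treatments. They included Lbr, a sterol C14 reductase of the nuclear envelope, with 80.3, 78.1 and 76.1 TPM with both treatments, against 149, 145 and 147 TPM in siControl (log2 change −0.90, SE 0.03, adjusted p = 2.37e-09). Unlike the median sterol gene, Lbr was also well below siControl with siZIP10 alone (−0.38, adjusted p = 2.4e-05).

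The isoprenoid branches beyond Ggps1 showed no common direction. Of 11 genes tested with both treatments, 3 rose, 4 fell and 4 were not called, with a median of −0.08 beside −0.08 over all genes. These counts were near the shares of all tested genes, 26.7% called higher and 39.9% lower, and so set the list apart in neither direction. Pdss1, which makes the side chain of ubiquinone, had 1.65, 1.92 and 1.80 TPM with both treatments, against 4.05, 4.36 and 3.95 TPM in siControl (−0.88, adjusted p = 6.1e-05), and Coq2, which attaches that chain, fell too (−0.47, adjusted p = 4.07e-05). Rabggta, a subunit of the enzyme that attaches geranylgeranyl groups to Rab proteins, rose with both treatments (0.46, adjusted p = 4.93e-05), in the direction of Ggps1.

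Of 9 genes of SREBP processing and sterol-regulated degradation, 2 rose with both treatments, 5 fell and 2 were not called. Of all tested genes, 26.7% were called higher and 39.9% lower. Rnf139, a ubiquitin ligase of the endoplasmic reticulum, fell (−0.46, adjusted p = 4.42e-06). Fbxw7, the ubiquitin ligase subunit that marks nuclear SREBP for degradation, rose with both treatments (0.31, adjusted p = 3.65e-05) and with siZIP10 alone (0.28, adjusted p = 0.000421).

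Sterol uptake and export differed from one gene to the next. Of 8 tested genes of uptake and transport, 3 rose, 4 fell and 1 was not called with both treatments, beside 26.7% called higher and 39.9% lower of all tested genes. Tmem97, a sterol-responsive membrane protein that binds NPC1, had 15.1, 12.4 and 13.1 TPM with both treatments, 27.4 and 25.2 TPM with DTPA and 34.0, 30.2 and 26.9 TPM with siZIP10, against 45.7, 39.8 and 44.8 TPM in siControl (log2 change −1.61, SE 0.09, adjusted p = 6.53e-08 for both treatments). Gramd1a, which moves cholesterol from the plasma membrane to the endoplasmic reticulum, rose (0.52, adjusted p = 7.17e-05).

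Of the 9 genes of export, esterification and LXR, only 3 passed the filter. With both treatments 1 of these rose, 1 fell and 1 was not called, beside 26.7% called higher and 39.9% lower of all tested genes. Abca1, the exporter of cholesterol to apolipoprotein A-I and a target of the sterol sensor LXR, had 14.7, 12.1 and 14.1 TPM with both treatments, 4.99 and 4.17 TPM with DTPA and 3.85, 4.12 and 3.65 TPM with siZIP10, against 2.71, 2.79 and 3.33 TPM in siControl. It was higher than siControl in every treated library (log2 change 1.89, SE 0.10, adjusted p = 3.28e-08 for both treatments), opposite in direction to the synthesis genes. Without siControl plus DTPA replicate 1 its change with DTPA was 0.39 (adjusted p = 0.0763), and its call with siZIP10 was lost in 10 of the 22 settings. Nr1h2, which encodes the LXR-β receptor, was called lower with both treatments (−0.18, adjusted p = 0.015), a call that was lost in 7 settings with changes of −0.15 to 0.04, so its direction depends on the scaling.

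Of 18 tested further genes of fatty acid metabolism, 8 rose and 10 fell with both treatments, and none was left without a call. Among all tested genes, 26.7% were called higher and 39.9% lower. Fads2, the Δ6 desaturase of polyunsaturated fatty acids, had 60.6, 56.6 and 60.2 TPM with both treatments, 178 and 172 TPM with DTPA and 217, 207 and 215 TPM with siZIP10, against 249, 252 and 254 TPM in siControl. The 4 groups did not overlap, and Fads2 stood at 23.5% of siControl with both treatments (log2 change −2.07, SE 0.03, adjusted p = 4.67e-12). Fads1, the Δ5 desaturase encoded beside it, fell as well (−1.28, adjusted p = 9.14e-11), and so did Mid1ip1, an activator of acetyl-CoA carboxylase (−1.42, adjusted p = 1.31e-09). Acss2, which makes cytosolic acetyl-CoA from acetate, was named after its values were seen. It had 72.7, 71.7 and 73.4 TPM with both treatments, 48.2 and 47.8 TPM with DTPA and 38.6, 38.3 and 38.2 TPM with siZIP10, against 32.2, 32.7 and 31.7 TPM in siControl (log2 change 1.15, SE 0.03, adjusted p = 7.4e-11 for both treatments). Acss2 was therefore higher than siControl in all 8 treated libraries, where Acly, which makes the same product from citrate, was lower.

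**Figure D5:**
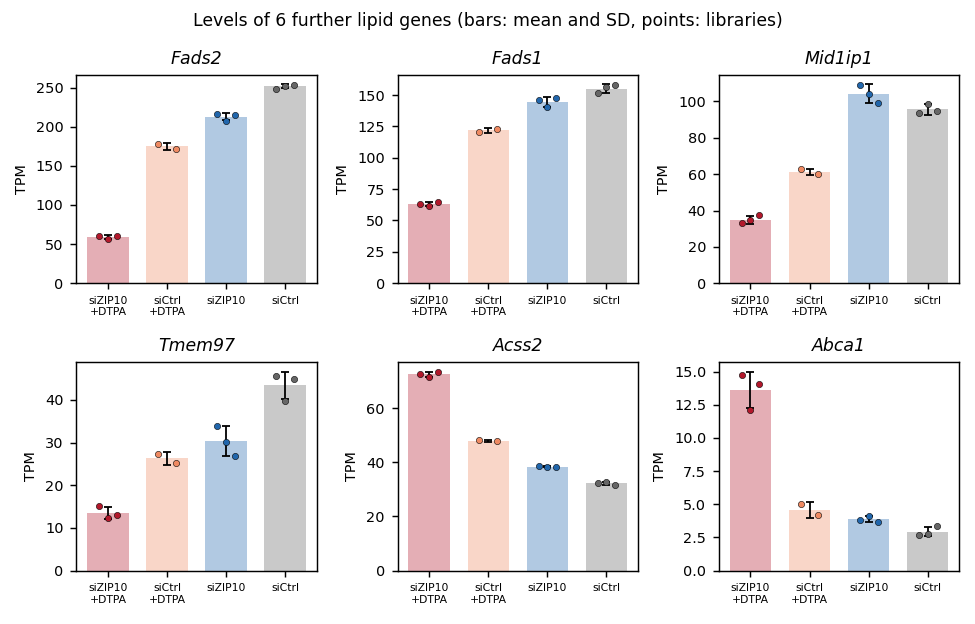
Bars are group means in TPM, error bars are SD, and points are libraries (n = 3, and n = 2 for siControl plus DTPA) for 6 further lipid genes. Fads2, Fads1, Mid1ip1 and Tmem97 are lowest with both treatments, whereas Acss2 and Abca1 are highest there.

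Other measures moved with these changes across the same libraries. The 10 proliferation markers fell in each of the 3 comparisons with siControl, with median log2 changes of −3.88 with both treatments, −0.98 with DTPA and −1.15 with siZIP10. Of all tested genes, 39.9%, 18.8% and 17.5% were called lower in these comparisons. Their summed level was 96.3 to 101.3 TPM with both treatments, 534 to 536 TPM with DTPA and 478 to 494 TPM with siZIP10, against 1007 to 1042 TPM in siControl. The mean of this sum was 52.1% of siControl with DTPA and 47.5% with siZIP10. The summed TPM of the 18 sterol genes was 78.6% of siControl with DTPA and 96.1% with siZIP10. Mitochondrial rRNA made up 1.43% to 1.45% of TPM with both treatments, 0.335% to 0.352% with DTPA and 0.372% to 0.421% with siZIP10, against 0.262% to 0.282% in siControl. The megakaryocyte markers, with Ppbp at 0 in every library, summed to 7.93 to 8.66 TPM with both treatments, against 2.46 to 4.14 TPM in siControl, and the myeloid markers, with Mpo and Itgam at 0, to 5.86 to 6.80 TPM, against 2.33 to 3.32 TPM. The erythroid markers summed to 12481 to 20951 TPM with both treatments, against 21080.1 to 23239.9 TPM in siControl. They did not move together. With both treatments Hbb-bt (11536, 5556 and 3249 TPM) and Alas2 averaged 235% and 117% of siControl. The other erythroid markers averaged between 5.06% (Slc4a1) and 81.9% (Klf1). The spread of the sum between the libraries with both treatments was mostly that of Hbb-bt. The part of these measures in the changes of the lipid genes was not tested.

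The balance of calls over all genes depends on the scaling, whereas no scaling moved the median of all genes by more than 0.1. With both treatments 3041 genes were called higher and 4542 lower, and after quantile normalization 3841 higher and 3809 lower. With DTPA the numbers were 1136 and 2136, and 1727 and 1653 after quantile normalization. With siZIP10 they were 1493 and 1987, and 2010 and 1694 after quantile normalization. For DTPA within the knockdown (2623 and 4248), the knockdown within DTPA (2426 and 3611) and the interaction (1369 and 2318), rescaling to nuclear protein-coding genes gave 3471 and 3450, 3264 and 2879, and 2123 and 1786. Under these scalings all 18 sterol genes were still called lower with both treatments and with DTPA.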

How the data were processed

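RNA from 12 cultures in 4 groups was sequenced after TruSeq Stranded mRNA library preparation, per the labels' protocols. The deposited values are TPM, which sum to 1e+06 in each library. The submitters' processing notes name the mm10 build and, as tools, HISAT2 2.1.0, featureCounts, Trimmomatic 0.33, edgeR and FastQC. How they were set, which annotation was counted and whether strand was used is not given in the sources used here. TPM multiplied by the exon lengths of GENCODE mouse release 21 gave whole reads, within 0.1 read, for 98.9% to 99.1% of the values of up to 20 reads, from which the depth was computed. The replicates are labelled as biological, and p-values measure the spread between them.

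A gene was kept if it averaged 1 TPM or more in the 11 libraries used. log2(TPM + 1) was fitted with limma 3.58.1 in R 4.3.3, with 4 group means, a trend on mean expression and two-sided moderated tests, and p-values were adjusted over all 11379 genes by the Benjamini-Hochberg method in each of 6 comparisons. The fit was tested on simulated data. The planned design allowed for leaving out the repeated library, so siControl plus DTPA has n = 2. All 30 genes are named, with Slc39a10, Mt1 and Mt2 as checks of the treatments and, of each other list, at most the 3 called genes that differed most from siControl. Members and lists were chosen with earlier results of these data known. Alternatives were another pseudocount, 2 other filters, 3 other scalings, voom on recovered reads, no trend, separate fits, a replicate block, the repeated library as labelled, and leaving out each library. Marker lists were erythroid, megakaryocyte, mast cell and basophil, myeloid, lymphoid, and hepatocyte and adipocyte. The mast cell and basophil markers summed to at most 1.70 TPM and the lymphoid markers to at most 3.15 TPM in any library. Mt1 was at 15.8% of siControl with both treatments, at 10.1% with DTPA and at 117% with siZIP10. Promoter windows are RefSeq sequences of GRCm38.p6, matched by symbol. Tables and plots were made with pandas 2.3.3, matplotlib 3.10.9 and numpy 2.4.6 in Python 3.11.15.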

Additional observations from a re-analysis of the deposited data

Results flagged for a closer look

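The effect of DTPA differed between siZIP10 and siControl cells by the test of the interaction in 23 of the 29 tested genes, 22 of them lower and 1 higher, where 20.4% of all tested genes were called lower and 12% higher. Values below are the log2 change with DTPA in siZIP10 cells minus that in siControl cells, from the moderated test of limma adjusted over 11379 genes. Among the enzymes up to squalene, it was −0.90 for Acat2, −0.88 for Hmgcs1, −0.72 for Mvk and −0.63 for Pmvk. It was −0.73 for Mvd, −1.05 for Idi1, −1.15 for Fdps and −1.21 for Fdft1. From squalene onwards, it was −0.66 for Sqle, −0.93 for Lss, −0.73 for Cyp51 and −0.56 for Msmo1. It was −0.41 for Nsdhl, −0.62 for Hsd17b7, −0.31 for Ebp and −0.29 for Sc5d. Srebf2 had a difference of −0.31 and Stard4 one of −0.60. The fatty acid genes Fasn, Acaca, Acly and Scd2 had differences of −0.53, −0.59, −0.36 and −0.69. Ggps1 alone of the 23 had a positive difference, 0.20. In Scd2 the effects had opposite signs, with −0.53 for DTPA in siZIP10 cells and 0.17 in siControl cells. Of the proliferation markers, 9 of 10 also had a called negative interaction, with a median of −1.51, and the part of that in the lipid genes was not tested.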

How the results depend on the processing

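In the 22 other settings, of which a fit of only the groups compared was not run for the interaction, no called change of the 29 genes reversed, and with both treatments no call was lost. The number of genes called moved by over 1.5 times only with the repeated library as labelled (16 in place of 25 with DTPA, 6 in place of 10 with siZIP10) and, for siZIP10, without siControl replicate 3 (range without 1 library 6 to 10). Calls over all tested genes dropped there too. With the repeated library they were 2499 in place of 3272 with DTPA and 2638 in place of 3480 with siZIP10. Without siControl replicate 3 they were 2805 with siZIP10. The sterol median minus the fatty acid median kept its sign in every setting but moved by more than its SD in some. With a mean of at least 5 TPM it was −0.019 with siZIP10 (main value −0.05), −0.49 for DTPA within the knockdown (−0.39) and −0.25 for the knockdown within DTPA (−0.30). With quantile normalization it was −0.39 with both treatments (−0.51), −0.32 and −0.37 for the same nested comparisons. With both treatments it was −0.46 with a pseudocount of 0.1 and −0.46 with voom. With the repeated library it was −0.067 with DTPA (−0.11) and −0.42 for the knockdown within DTPA. Without 1 library it ranged from −0.57 to −0.49 with both treatments, −0.15 to −0.10 with DTPA, −0.34 to −0.28 for the knockdown within DTPA and −0.24 to −0.077 for the interaction (−0.16). Same-numbered libraries did not deviate together (correlations −0.06 to 0.06), so the numbers were not taken as pairs, and the fit with a replicate block called 25 genes with DTPA and changed no call of the 29 genes. The pair of siControl plus DTPA libraries limits the comparisons with DTPA alone, and Elovl6, at 1.46 to 4.12 TPM, is the least precise of the tested genes. The cause of these movements was not tested, except that the stricter filter leaves out Elovl6.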

Other observations

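Further genes of the lists were looked up after their values were seen. Of the acyl-CoA synthetases, which activate fatty acids, Acsl3 fell with both treatments against siControl (log2 change −0.87, SE 0.12, adjusted p = 7.36e-05), while Acsl1 (0.72, adjusted p = 1.84e-07), Acsl5 (0.50, adjusted p = 6.91e-06) and Acsl4 (0.29, adjusted p = 0.000494) rose. Of the enzymes that lengthen fatty acids in the endoplasmic reticulum, Hacd2 (−0.68, adjusted p = 1.22e-06), Hsd17b12 (−0.65, adjusted p = 3.91e-07), Tecr (−0.54, adjusted p = 2.49e-07) and Elovl1 (−0.52, adjusted p = 2.11e-07) fell, and Hacd3 rose (0.36, adjusted p = 4.32e-07). Me1, the malic enzyme that supplies NADPH, rose (0.47, adjusted p = 0.00053), as did Slc25a1, the mitochondrial citrate carrier (0.25, adjusted p = 4.89e-05).

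Npc1 and Npc2, which move cholesterol out of lysosomes, rose with both treatments (0.34, adjusted p = 0.000273 and 0.33, adjusted p = 7.26e-08), and Scarb1, a receptor for high-density lipoprotein, fell (−0.47, adjusted p = 3.96e-05). Mbtps1, the protease that makes the first cut of SREBP precursors, rose (0.19, adjusted p = 0.00323), and Mbtps2, the zinc metalloprotease that makes the second cut, was not called (0.04, adjusted p = 0.651). Nus1 and Dolk, which act in the synthesis of dolichol phosphate, fell (−0.42, adjusted p = 3.08e-05 and −0.34, adjusted p = 0.0023). In these genes the values are those of the moderated test of limma, adjusted over all tested genes, and the alternative settings were not examined one by one.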
